A study of Mus musculus with 114 samples.

Results

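Adipocytes from mice kept on chow for 34 weeks were compared with adipocytes from mice given a high fat diet (HFD) for 8 weeks. The comparison used 14 of the 38 mice of the series, 8 in the 34-week chow diet (CD) group and 6 in the 8-week HFD group, and both groups were taken by their labels. Male C57BL/6J mice were put on CD or HFD when 6 weeks old, groups were taken after 8, 20 and 34 weeks, and mRNA was sequenced from the floating adipocyte fraction of perigonadal white adipose tissue. The 34-week CD mice were therefore 40 weeks old at harvest and the 8-week HFD mice 14 weeks old, so diet, time on diet and age cannot be told apart within this comparison. All mice were of the same inbred strain with no further allele given and were fasted before harvest, and the CD was either of a pair of low fat diets that the labels do not assign to single mice. Each mouse was sequenced as 3 technical replicates that the deposited table holds as 1 column, so n counts mice.

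White adipocytes store triglyceride around a lipid droplet, release fatty acids when fasted, and secrete hormones such as leptin and adiponectin. As they enlarge they rebuild the surrounding basement membrane and collagen, draw in blood vessels, and attract macrophages. The adipocyte fraction floats after collagenase digestion, and cells attached to adipocytes can float with it. In bulk RNA, fewer cells of a type and less RNA per cell cannot be told apart.

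Of the 15 pairs that the 6 groups of the series allow, these groups had the second lowest share of called genes. A gene was called when its limma adjusted p was under 0.05, two-sided, on log2(CPM + 1), where CPM scales each mouse's reads to the same total. Among 10334 genes with a mean log2(CPM + 1) above 2 over the 14 mice, 2032 were called, or 19.7%. The lowest share, 5.34%, lay between the 8-week and 20-week CD groups, and the highest, 66.5%, between the 8-week CD and 34-week HFD groups. The median absolute log2 difference was 0.26, and the median signed difference 0.01, with 34-week CD minus 8-week HFD as the direction throughout. Between the 20-week and 34-week HFD groups the median absolute difference was 0.252, yet 28.8% of genes were called. The share called also depends on the spread between mice. The mean SD on log2(CPM + 1) was 0.401 in the 34-week CD mice and 0.257 in the 8-week HFD mice. In the 34-week CD mice 936 genes were higher (9.06%) and in the 8-week HFD mice 1096 were higher (10.6%). At 2-fold or more the calls leaned to the 8-week HFD side, with 39 genes higher in 34-week CD and 186 higher in 8-week HFD. Single mice weighed on the count, which was 789 without 8-week HFD mouse 5 and 2776 without 34-week CD mouse 7. Of the called genes 751 stayed called whichever of the 14 mice was left out, 285 of them higher in 34-week CD.

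Both groups carried the adipocyte markers in full, and limma called 0 of the 10, against 3 at an unadjusted p under 0.05, 0 by edgeR and 2 by DESeq2. Their sum ran from 29914 to 62522 CPM in the 34-week CD mice and 34332 to 45863 CPM in the 8-week HFD mice. Adiponectin (Adipoq) stood at 5011 CPM (3442 to 6396) in the 34-week CD mice and 4905 CPM (3959.5 to 6148) in the 8-week HFD mice, and the groups overlapped. Leptin (Lep), whose level tracks fat cell size, stood at 1631 CPM (591 to 3833) in the 34-week CD mice and 3799 CPM (1472 to 7449.9) in the 8-week HFD mice. The highest leptin values were in 8-week HFD mice 3 and 4, yet 34-week CD mice 1 and 7 exceeded 8-week HFD mice 1, 2 and 5 (log2 difference -1.21 ± 0.48, adjusted p = 0.0853). The lipases Pnpla2, Lipe and Mgll and the adipocyte regulator Pparg were not called either, with log2 differences of -0.19, 0.15, -0.22 and 0.43.

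Other cell types were present in unequal amounts. The 14 macrophage markers summed from 1307 to 14052 CPM in the 34-week CD mice and 1235 to 3505 CPM in the 8-week HFD mice, with 34-week CD mice 5 and 2 highest. Limma called 0 of them (median log2 difference 1.01), with 4 at an unadjusted p under 0.05, 3 called by edgeR and 8 by DESeq2. The 12 endothelial markers summed from 73.5 to 229.7 CPM in the 34-week CD mice and 113 to 555 CPM in the 8-week HFD mice, lowest in 8-week HFD mouse 2 within its group. T and NK cell markers summed from 1.78 to 6.25 CPM in the 34-week CD mice and 1.67 to 7.50 CPM in the 8-week HFD mice, with Cd5 and Ncr1 at 0 in all 34-week CD mice and Cd3e and Cd8b1 at 0 in all 8-week HFD mice, and none reached the level for testing. Markers of epididymis and testis, the organs beside this fat pad, summed from 1.16 to 7.24 CPM in the 34-week CD mice and 2.91 to 7.89 CPM in the 8-week HFD mice. The mice also differed in reads, 9275711 to 12433584 in the 34-week CD group and 13201234 to 15480388 in the 8-week HFD group, so 1 read was worth 0.0646 to 0.108 CPM and depth cannot be told apart from group. Thinning every mouse to the reads of the shallowest left 1930 genes called.

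Gene length moved with the comparison. Genes higher in 34-week CD had a median exon length of 2926 bases, those higher in 8-week HFD 7207 bases, and all tested genes 4621 bases. Genes were split by length into 5 bins of equal size. In the bin of the shortest genes (up to 2604 bases), 18.7% were higher in 34-week CD and 2.61% in 8-week HFD. In the bin of the longest (from 7867 bases), the shares were 1.74% and 23.7%. The excess of short over long genes was largest in 34-week CD mice 2, 6, 3 and 4, while mice 7 and 8 lay within the range of the 8-week HFD group. With a smooth trend on exon length taken out of each mouse, 613 genes were higher in 34-week CD (5.94%) and 833 in 8-week HFD (8.07%), and 1128 of the 2032 calls were kept. What sets the trend was not tested.

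**Figure D1:**
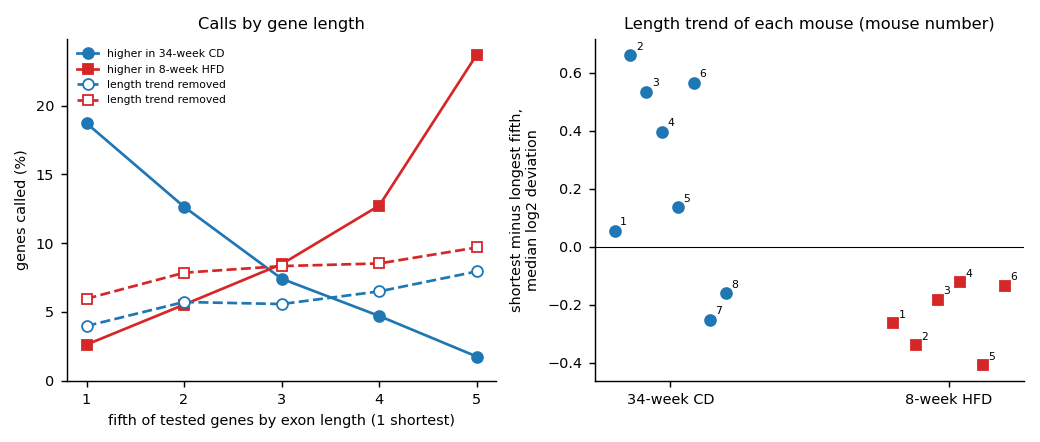
Left, share of tested genes called (%) in each of 5 bins of exon length, for genes higher in 34-week CD (blue) and in 8-week HFD (red), with open symbols after the length trend was removed. Right, each mouse's median log2 deviation in the shortest bin minus that in the longest, numbered by mouse. Called shares cross between short and long genes, from 18.7% against 2.61% to 1.74% against 23.7%.

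In 246 genes every 34-week CD mouse was above every 8-week HFD mouse (2.38% of tested genes), and in 291 every mouse was below (2.82%). Among the called genes of the first kind that have a gene name, the largest difference was in Cd5l (chr3:87357881-87371074, GRCm38), a secreted protein that macrophages make. Cd5l stood at a median of 27.1 CPM (9.58 to 368) in the 34-week CD mice and 1.82 CPM (1.03 to 3.10) in the 8-week HFD mice (log2 difference 3.79 ± 0.64, adjusted p = 0.00637); medians are given with the lowest and highest mouse, and differences with their standard error. The 34-week CD values spread widely, with mice 5 and 2 far above the others, and these were the mice with most macrophage RNA. Without both mice the Cd5l difference was 2.95 (adjusted p = 0.000605). Wfdc17, a small secreted protein also known from macrophages, followed the same mice at 91.7 CPM (42.2 to 425) in the 34-week CD mice and 11.8 CPM (9.70 to 31.2) in the 8-week HFD mice (log2 difference 2.84 ± 0.46, adjusted p = 0.00584).

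Genes with other known functions also lay higher in 34-week CD without overlap. Chchd10 (chr10:75933130-75937750), a mitochondrial protein of the cristae, stood at 112 CPM (64.5 to 145) in the 34-week CD mice and 24.5 CPM (15.7 to 47.3) in the 8-week HFD mice (log2 difference 2.00 ± 0.22, adjusted p = 0.00249). G0s2 (chr1:193272160-193273188), the inhibitor of the triglyceride lipase ATGL, stood at 206 CPM (131 to 350.2) in the 34-week CD mice and 67.2 CPM (22.4 to 109) in the 8-week HFD mice (log2 difference 1.76 ± 0.35, adjusted p = 0.00994). The lowest 34-week CD mice, 5 and 4, were only a little above the highest 8-week HFD mouse. Il18bp, which neutralises interleukin-18, stood at 9.91 CPM (6.65 to 12.9) in the 34-week CD mice and 2.89 CPM (2.20 to 3.41) in the 8-week HFD mice (log2 difference 1.43 ± 0.17, adjusted p = 0.00284). Irf7, a regulator of interferon genes, stood at 45.5 CPM (26.5 to 122) in the 34-week CD mice and 19.3 CPM (17.8 to 23.2) in the 8-week HFD mice (log2 difference 1.15 ± 0.28, adjusted p = 0.0174). Limma called it alone among 32 interferon-stimulated genes (3.1%, against 19.7% of all tested genes). Of these, 23 had a difference above 0 and 8 an unadjusted p under 0.05. The calls were 5 by edgeR and 7 by DESeq2, all higher in 34-week CD. Amdhd2, an enzyme of amino sugar metabolism, was higher by 1.10, or by 0.86 (adjusted p = 0.00915) without 34-week CD mice 2 and 5, which were the highest in it as in macrophage markers. The membrane protein Tmem79 was higher by 1.43. Tmem79 was low in 4 of the 34-week CD mice (1, 3, 5 and 7), and of the 14 fits that left out 1 mouse fewer kept the call of Tmem79 (called in 5 of 14, adjusted p up to 0.0767 without 8-week HFD mouse 5).

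On the 8-week HFD side the largest difference without overlap was in the stress chaperone Hspa1b, which is described with its family. Retnla (chr16:48842609-48844461), a secreted resistin-like protein, stood at 46.3 CPM (29.3 to 161) in the 34-week CD mice and 280.3 CPM (193 to 673) in the 8-week HFD mice (log2 difference -2.50 ± 0.38, adjusted p = 0.00584). The imprinted gene Peg3 (chr7:6703892-6730462) stood at 69.1 CPM (19.3 to 231) in the 34-week CD mice and 278 CPM (239.7 to 465) in the 8-week HFD mice (log2 difference -2.43 ± 0.52, adjusted p = 0.0118), and within the 34-week CD group mice 2, 4 and 6 were near 20 CPM while mouse 7 came close to the 8-week HFD range. Peg10, another imprinted gene, differed by -1.91 (adjusted p = 0.0247), and the call did not hold in every fit that left out 1 mouse: Peg10 (called in 12 of 14, adjusted p up to 0.0659 without 8-week HFD mouse 5). Chac1, an enzyme that breaks down glutathione and is induced by the stress regulator ATF4, stood at 25.5 CPM (3.88 to 39.7) in the 34-week CD mice and 80.2 CPM (68.5 to 144) in the 8-week HFD mice (log2 difference -2.14 ± 0.41, adjusted p = 0.00855). Hr, a corepressor of nuclear receptors, stood at 20.8 CPM (8.81 to 37.8) in the 34-week CD mice and 93.8 CPM (60.2 to 166) in the 8-week HFD mice (log2 difference -2.07 ± 0.32, adjusted p = 0.00584). Hspg2, the basement membrane proteoglycan perlecan, was abundant in both groups at 464 CPM (201 to 1248) in the 34-week CD mice and 1659 CPM (1298 to 1965) in the 8-week HFD mice (log2 difference -1.80 ± 0.37, adjusted p = 0.0104). The GABA receptor subunit Gabrr2 and Sez6l, genes known mainly from neurons, differed by -1.84 and -1.83 on the same scale, at medians of 10.3 and 21.9 CPM in 8-week HFD.

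**Figure D2:**
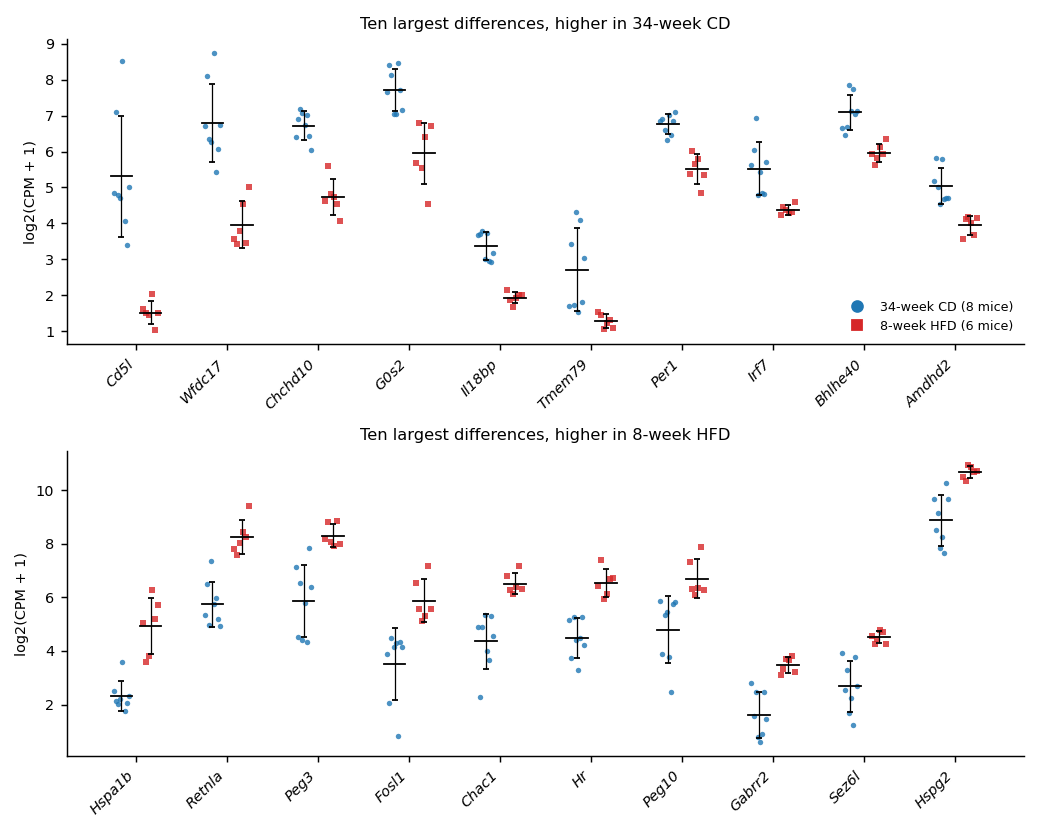
log2(CPM + 1) of the 20 named genes with the largest differences and no overlap of mice, 10 higher in 34-week CD (upper panel) and 10 higher in 8-week HFD (lower panel). Points are mice, circles for 34-week CD and squares for 8-week HFD, and black bars are means with SD. The 34-week CD circles lie above all squares in the upper panel and below all squares in the lower, and Cd5l runs from 9.58 to 368 CPM in 34-week CD.

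Chaperones that fold proteins under heat or other stress were among the genes higher in 8-week HFD. Of the 19 listed heat shock chaperones tested, 8 (42.1%) were called higher in 8-week HFD, where 10.6% of all tested genes were, and 0 were higher in 34-week CD. The list's median log2 difference was -0.39, with or without the length trend. Hspa1b (chr17:34956429-34959238) stood at 3.48 CPM (2.37 to 11.1) in the 34-week CD mice and 33.5 CPM (11.1 to 77.1) in the 8-week HFD mice (log2 difference -2.62 ± 0.40, adjusted p = 0.00584). The highest 34-week CD mouse, mouse 5, was level with the lowest 8-week HFD mouse, and the others stayed under 5 CPM. Hspa1a, its neighbour with nearly the same sequence, stood at 11.2 CPM (7.57 to 34.9) in the 34-week CD mice and 37.95 CPM (14.5 to 76.9) in the 8-week HFD mice (log2 difference -1.45 ± 0.37, adjusted p = 0.0189), and how reads were split between the pair is uncertain. Hsph1, a partner of Hsp70, stood at 48.9 CPM (34.4 to 60.6) in the 34-week CD mice and 99.3 CPM (60.4 to 143) in the 8-week HFD mice (log2 difference -1.02 ± 0.17, adjusted p = 0.00637). Hsp90aa1, the inducible form of Hsp90, was among the abundant members at 360.0 CPM (254 to 421) in the 34-week CD mice and 516 CPM (419 to 658) in the 8-week HFD mice (log2 difference -0.60 ± 0.13, adjusted p = 0.0118). Smaller differences were called in Hspa4l (-0.59), Dnaja1 (-0.57), Hspa8 (-0.43) and Chordc1 (-0.39), named here after their values were seen. With the length trend removed 5 of the 8 were called, and 5 were called whichever mouse was left out.

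Heat shock genes are classically switched on through heat shock elements, inverted repeats of the letters GAA. Promoters are shown for Hspa1b and Hsph1, which with Hspa1a had the largest differences of the called chaperones, and for Chordc1, which had the smallest of them but the most matches. Only the first promoter window listed for each gene was searched, so windows at other start sites were left out. Of 8236 tested genes with a RefSeq promoter window on GRCm38.p6 (250 bases before to 50 after the start site), 11.5% held GAANNTTC or TTCNNGAA, letters that read the same on both strands, and 15.1% of 27025 windows of all genes did. Among the listed chaperones 9 of 15 windows held it, and among those called 5 of 6, the Hspa4l window holding 0. Capitals mark the matches, which are descriptions of letters and not shown binding sites. Overlapping matches run together in Hsph1 and Chordc1.
Hspa1b (chr17:34959189-34959488, minus strand): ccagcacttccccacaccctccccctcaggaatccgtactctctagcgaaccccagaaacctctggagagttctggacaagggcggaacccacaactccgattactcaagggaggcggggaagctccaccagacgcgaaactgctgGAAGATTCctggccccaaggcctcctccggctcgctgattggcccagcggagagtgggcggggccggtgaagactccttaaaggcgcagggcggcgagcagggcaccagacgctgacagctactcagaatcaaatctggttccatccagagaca
Hsph1 (chr5:149636287-149636586, minus strand): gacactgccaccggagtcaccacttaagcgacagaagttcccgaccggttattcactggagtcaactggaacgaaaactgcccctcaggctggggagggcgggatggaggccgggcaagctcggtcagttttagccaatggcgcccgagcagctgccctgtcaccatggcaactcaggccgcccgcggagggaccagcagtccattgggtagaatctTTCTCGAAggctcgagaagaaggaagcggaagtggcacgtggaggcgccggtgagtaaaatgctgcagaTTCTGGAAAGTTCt
Chordc1 (chr9:18292017-18292316, plus strand): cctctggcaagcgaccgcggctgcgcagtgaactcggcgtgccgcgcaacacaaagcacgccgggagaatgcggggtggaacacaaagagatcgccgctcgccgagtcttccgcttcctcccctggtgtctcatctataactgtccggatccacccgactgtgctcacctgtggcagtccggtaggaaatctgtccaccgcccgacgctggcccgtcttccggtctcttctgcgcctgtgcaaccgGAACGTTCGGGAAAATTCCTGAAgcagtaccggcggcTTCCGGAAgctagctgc

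Genes that answer growth factors and cell stress within hours were mixed as a list, with single members far apart. Of 24 immediate early genes, 3 were called higher in 8-week HFD and 1 higher in 34-week CD, where 10.6% and 9.06% of all tested genes were, so the list had about the share of calls of all genes. Fosl1 (chr19:5447698-5455938), a subunit of the transcription factor AP-1, stood at 16.7 CPM (0.762 to 21.5) in the 34-week CD mice and 46.1 CPM (33.3 to 144) in the 8-week HFD mice (log2 difference -2.36 ± 0.56, adjusted p = 0.016). Myc differed by -1.18, Egr3 by -1.06 and Fos by 0.73, the last higher in 34-week CD, and the Fos call was lost with the length trend removed (adjusted p = 0.112). Srxn1, which repairs oxidised peroxiredoxins, stood at 85.4 CPM (43.7 to 126) in the 34-week CD mice and 213 CPM (123 to 493) in the 8-week HFD mice (log2 difference -1.53 ± 0.30, adjusted p = 0.00954). Csf1, the growth factor of macrophages, stood at 42.8 CPM (21.6 to 92.04) in the 34-week CD mice and 106 CPM (86.8 to 649) in the 8-week HFD mice (log2 difference -1.83 ± 0.44, adjusted p = 0.0168), with 8-week HFD mice 5 and 1 far above the other 4 of their group. Errfi1, a brake on the EGF receptor, differed by -1.45 (adjusted p = 0.0194). Of the unfolded protein response list, 4 of 26 were higher in 8-week HFD, Chac1 furthest, and 1 was higher in 34-week CD. Together these calls were 19.2% of the list, against 19.7% of all tested genes, and only that of Chac1 held whichever mouse was left out. Mice 5 and 1 were also the highest of the 8-week HFD group in Fosl1, Chac1 and Srxn1. Leaving out 1 mouse ended the call in part of the 14 fits for Myc (called in 7 of 14, adjusted p up to 0.095 without 8-week HFD mouse 5), Egr3 (called in 6 of 14, adjusted p up to 0.0803 without 8-week HFD mouse 5), Fos (called in 2 of 14, adjusted p up to 0.0989 without 8-week HFD mouse 5) and Errfi1 (called in 13 of 14, adjusted p up to 0.0533 without 8-week HFD mouse 5).

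The circadian clock runs on CLOCK and its partner BMAL1, which switch on Per, Cry, Nr1d1 and Dbp genes through E-boxes, and on the products that switch them off again. Clock genes differed in both directions, 4 of 18 higher in 34-week CD and 3 higher in 8-week HFD, with a median of -0.10. Per1 (chr11:69095108-69109965) stood at 115 CPM (78.3 to 135) in the 34-week CD mice and 44.96 CPM (27.6 to 64.2) in the 8-week HFD mice (log2 difference 1.25 ± 0.17, adjusted p = 0.00462), and no mice overlapped. Bhlhe40, a repressor that acts on the same E-boxes, stood at 134 CPM (87.9 to 229) in the 34-week CD mice and 59.6 CPM (47.95 to 79.95) in the 8-week HFD mice (log2 difference 1.13 ± 0.21, adjusted p = 0.00801), again with no overlap. Nr1d1 (chr11:98767932-98775377), the repressor REV-ERB alpha, stood at 403 CPM (182 to 667) in the 34-week CD mice and 172 CPM (112 to 209.9) in the 8-week HFD mice (log2 difference 1.21 ± 0.28, adjusted p = 0.0142), and 34-week CD mouse 5 fell within the 8-week HFD range. Clock itself stood at 64.7 CPM (43.6 to 108) in the 34-week CD mice and 121 CPM (106 to 126) in the 8-week HFD mice (log2 difference -0.80 ± 0.17, adjusted p = 0.012), with 34-week CD mouse 8 alone inside the 8-week HFD range. Cry1 (-0.67), Nfil3 (-0.75) and Bhlhe41 (0.79), named after their values were seen, were the remaining calls. With the length trend removed 3 and 3 were called, and 3 and 1 were called whichever mouse was left out. Harvest times of single mice are not given in the labels, so their part was not tested.

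The promoters of Per1 and Bhlhe41 are shown with the E-box letters CACGTG, which read the same on both strands, in capitals. These letters were in 10.8% of the windows of tested genes, 7.24% of all windows, and 4 of 15 windows of listed clock genes. Among the called clock genes with a window, 2 of 3 of those higher in 34-week CD and 1 of 3 of those higher in 8-week HFD held them, and the windows of Nr1d1, Clock and Nfil3 held 0. Here too only the first window of each gene was searched, and other start sites were left out.
Per1 (chr11:69098699-69098998, plus strand): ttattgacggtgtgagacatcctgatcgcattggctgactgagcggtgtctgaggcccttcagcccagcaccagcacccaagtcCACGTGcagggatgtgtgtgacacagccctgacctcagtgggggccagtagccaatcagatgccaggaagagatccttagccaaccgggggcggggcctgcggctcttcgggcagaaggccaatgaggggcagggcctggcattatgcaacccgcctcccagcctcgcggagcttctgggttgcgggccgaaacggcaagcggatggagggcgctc
Bhlhe41 (chr6:145865371-145865670, minus strand): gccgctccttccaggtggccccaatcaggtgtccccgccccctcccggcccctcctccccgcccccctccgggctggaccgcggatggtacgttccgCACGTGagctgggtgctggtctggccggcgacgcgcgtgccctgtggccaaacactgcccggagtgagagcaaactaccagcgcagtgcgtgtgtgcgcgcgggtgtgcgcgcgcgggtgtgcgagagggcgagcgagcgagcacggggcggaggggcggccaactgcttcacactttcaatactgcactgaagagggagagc

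Genes of blood vessels were lower in 34-week CD. Of 11 endothelial markers tested, 8 were higher in 8-week HFD and 0 in 34-week CD, with a median of -1.22, or -1.30 with the length trend removed. Cdh5, the cadherin that joins endothelial cells, stood at 18.6 CPM (13.04 to 32.1) in the 34-week CD mice and 64.9 CPM (21.2 to 119) in the 8-week HFD mice (log2 difference -1.65 ± 0.31, adjusted p = 0.00854). Pecam1, the adhesion molecule CD31, stood at 18.1 CPM (9.23 to 31.9) in the 34-week CD mice and 53.8 CPM (19.1 to 92.7) in the 8-week HFD mice (log2 difference -1.47 ± 0.32, adjusted p = 0.0124). The angiopoietin receptor Tek differed by -1.40 and the VEGF receptors Flt1 and Kdr by -1.42 and -0.97. In each of the 5 genes 8-week HFD mouse 2 lay inside the 34-week CD range and the other 8-week HFD mice, apart from mouse 3 in Kdr, lay above it. Part of the 14 fits without 1 mouse ended the calls of Kdr (called in 7 of 14, adjusted p up to 0.089 without 8-week HFD mouse 5) and Rgs5 (called in 12 of 14, adjusted p up to 0.0629 without 8-week HFD mouse 5). Mural cells wrap small vessels, and 3 of their 8 tested markers were called, all higher in 8-week HFD: Notch3 (-1.84), Abcc9 (-1.58) and Rgs5 (-1.47). Notch3 stood at 3.46 CPM (0.846 to 5.76) in the 34-week CD mice and 15.6 CPM (3.41 to 23.4) in the 8-week HFD mice. Without 8-week HFD mouse 5, 5 of 11 endothelial and 2 of 8 mural markers were called, and as many held whichever mouse was left out. Without 8-week HFD mouse 2, 9 of 11 endothelial and 4 of 8 mural markers were called.

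The vessel receptors also made up part of the hypoxia and angiogenesis list, in which 7 of 16 were higher in 8-week HFD and 2 in 34-week CD. Outside the vessel markers, Slc2a1 (chr4:119108745-119137330), the glucose transporter GLUT1 that hypoxia induces, stood at 22.7 CPM (14.7 to 35.7) in the 34-week CD mice and 50.7 CPM (42.5 to 86.1) in the 8-week HFD mice with no overlap (log2 difference -1.32 ± 0.21, adjusted p = 0.00584). Ndrg1 (-0.75), Hif1a (-0.71) and Arnt (-0.43) were lower in 34-week CD, and Pdk1 (0.60) and Egln3 (0.73) higher, all but Pdk1 named after their values were seen, and 3 calls higher in 8-week HFD and 1 higher in 34-week CD held whichever mouse was left out. The fits without 1 mouse did not all keep Pdk1 (called in 6 of 14, adjusted p up to 0.0784 without 8-week HFD mouse 5). Pdk1 and Egln3 limit or sense oxygen use, and Hif1a and Arnt form the hypoxia-inducible factor. The erythroid marker Hbb-bs differed by -1.59 (adjusted p = 0.0335), and erythroid markers summed from 3.37 to 24.8 CPM in the 34-week CD mice and 13.9 to 121 CPM in the 8-week HFD mice, on the same side as the vessel genes. 8-week HFD mouse 5 was far above the others in both, and of the fits without 1 mouse fewer than 14 kept Hbb-bs (called in 10 of 14, adjusted p up to 0.0674 without 8-week HFD mouse 5).

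Matrix genes called in this comparison were higher in 8-week HFD, and of their lists the basement membrane, which surrounds each adipocyte and each small vessel, had the largest share of calls. Of 20 listed genes for collagens VI and IV and the basement membrane, 7 were higher in 8-week HFD and 0 in 34-week CD (median -0.77, -0.63 with the length trend removed, when 6 were called), and 5 held whichever mouse was left out. Endothelial and mural cells also make basement membrane, and their markers had medians of -1.22 and -1.10 in the same direction, with 8-week HFD mouse 2 low in them as in Lama2 and Adamts5; their part in the matrix difference was not tested. Next to Hspg2, the laminin chain Lama2 stood at 3.90 CPM (1.75 to 16.3) in the 34-week CD mice and 19.4 CPM (4.24 to 29.4) in the 8-week HFD mice (log2 difference -1.76 ± 0.43, adjusted p = 0.0169), Lamb3 differed by -1.37 and the collagen VI chain Col6a1 by -1.11. In Lama2, 34-week CD mouse 5 was high at 16.3 CPM and 8-week HFD mouse 2 low at 4.24 CPM. Among glycoproteins and proteoglycans 6 of 33 (18.2%) were called, all higher in 8-week HFD, where 10.6% of all tested genes were. Tenascin C (Tnc, chr4:63959785-64047015), made where tissue is being rebuilt, had the largest difference of the list at 5.72 CPM (1.19 to 14.3) in the 34-week CD mice and 47.9 CPM (11.97 to 327) in the 8-week HFD mice (log2 difference -3.17 ± 0.61, adjusted p = 0.00906). Mice 7 and 8 of the 34-week CD group were highest in it, and 8-week HFD mouse 2 lay between them. The matricellular protein Thbs1 differed by -2.10, the tenascin Tnxb by -1.37 and the proteoglycan Prelp by -1.31. Leaving out 1 mouse ended some calls among them, as in Thbs1 (called in 10 of 14, adjusted p up to 0.0758 without 8-week HFD mouse 5), Tnxb (called in 4 of 14, adjusted p up to 0.103 without 8-week HFD mouse 5), Prelp (called in 4 of 14, adjusted p up to 0.0829 without 8-week HFD mouse 5), Lamb3 (called in 5 of 14, adjusted p up to 0.089 without 8-week HFD mouse 5) and Col6a1 (called in 6 of 14, adjusted p up to 0.0697 without 8-week HFD mouse 4).

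Of 25 matrix proteases and inhibitors 5 (20%) were higher in 8-week HFD, where 10.6% of all tested genes were. Adamts1 (-1.36), Adamts5 (-1.19), the inhibitor Timp3 (-0.96) and Mmp19 (-0.85) were furthest. Fibrillar collagens and their processing enzymes gave 2 calls of 23 (8.70%), a share below the 10.6% of all tested genes. The calls were the crosslinking enzyme Lox (-1.32) and the prolyl hydroxylase P4ha1 (-0.68). The list median was -0.61, and 22 of the 23 differences lay below 0. Col1a1 (0.06), Col4a1 (-0.52), Col6a3 (-0.90), Fn1 (-1.23), Eln (-0.72), Sparc (-0.59), Mmp2 (-0.52), Mmp9 (0.56), Mmp12 (-1.12) and Timp1 (-0.03), genes the study follows, did not pass the test, with adjusted p from 0.0595 to 0.977. Markers of fat progenitors and fibroblasts, which make much of this matrix, gave 0 calls of 11 by limma (3 at an unadjusted p under 0.05, 0 by edgeR and 1 by DESeq2), and their sum ran from 619.9 to 2502 CPM in the 34-week CD mice and 586 to 1647 CPM in the 8-week HFD mice, highest in 34-week CD mouse 5. Actin and focal adhesion genes gave 8 calls of 54 (14.8%), all higher in 8-week HFD, a share near the 10.6% of all tested genes, and 3 held whichever mouse was left out. The calls were led by the filamin Flnc (-1.79) and the tropomyosin Tpm4 (-0.89). Calls that failed in at least 1 fit without a mouse were Adamts1 (called in 12 of 14, adjusted p up to 0.0657 without 8-week HFD mouse 5), Lox (called in 7 of 14, adjusted p up to 0.0782 without 8-week HFD mouse 5) and Flnc (called in 12 of 14, adjusted p up to 0.0639 without 8-week HFD mouse 1).

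TGF-beta signals drive matrix production. In their list 6 of 29 genes (20.7%) were higher in 8-week HFD, against 10.6% of all tested genes, and 0 in 34-week CD. The calls were receptors and an inhibitor: Bmpr2 (-1.37) and the inhibitory Smad7 (-1.56) without overlap, and Eng (-0.91), Tgfbr1 (-0.75), Bmpr1a (-0.73) and Acvr2a (-0.64), the last pair named after their values were seen. Whichever mouse was left out, 3 of the 6 held. Eng is also made by endothelial cells. The ligands Tgfb1 (0.34) and Tgfb3 (-0.42) and the receptor Tgfbr2 (0.16) did not pass the test. The Smad7 call was lost with the length trend removed (adjusted p = 0.0517), and leaving out 1 mouse ended part of the calls of Smad7 (called in 3 of 14, adjusted p up to 0.0997 without 8-week HFD mouse 1), Eng (called in 3 of 14, adjusted p up to 0.0971 without 8-week HFD mouse 5), Tgfbr1 (called in 12 of 14, adjusted p up to 0.0684 without 8-week HFD mouse 5) and Lrp6 (called in 8 of 14, adjusted p up to 0.0588 without 8-week HFD mouse 5). Wnt signalling had 5 of 19 members (26.3%) higher in 8-week HFD, including Wnt11 (-0.83) and the coreceptors Lrp5 (-0.55) and Lrp6 (-0.63). With the length trend removed 2 were called higher in 8-week HFD and 1 higher in 34-week CD. The calls of Lrp5 and Lrp6 were lost in that setting (adjusted p = 0.0541 and 0.0641). Whichever mouse was left out, 2 of the 5 Wnt calls held.

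Some genes are known to mark the capacity of a fat pad to expand. Of 14 such genes tested, 8 were higher in 8-week HFD and 0 in 34-week CD (median -0.78; 7 called with the length trend removed; 4 called whichever mouse was left out). Mest (chr6:30733506-30748466), an imprinted gene whose level follows the expansion of adipocytes, stood at 302 CPM (77.5 to 898) in the 34-week CD mice and 1084 CPM (621 to 1328) in the 8-week HFD mice (log2 difference -1.89 ± 0.49, adjusted p = 0.0196). In 34-week CD mice 4, 5 and 6 it was the lowest, while mouse 7 reached the 8-week HFD range. Trp53inp2, a nuclear and autophagy protein, stood at 477 CPM (299 to 1010.1) in the 34-week CD mice and 1637 CPM (1019 to 1894) in the 8-week HFD mice with no overlap (log2 difference -1.48 ± 0.28, adjusted p = 0.00855). Within the 34-week CD group mouse 7 was the highest in Mest and in Peg3, and mouse 1 in Trp53inp2. The palmitoyltransferase Zdhhc2 (-0.97) and the caveolin Cav2 (-0.79) were also higher in 8-week HFD. Without 1 mouse the call failed in some fits for Zdhhc2 (called in 7 of 14, adjusted p up to 0.0713 without 8-week HFD mouse 6).

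**Figure D3:**
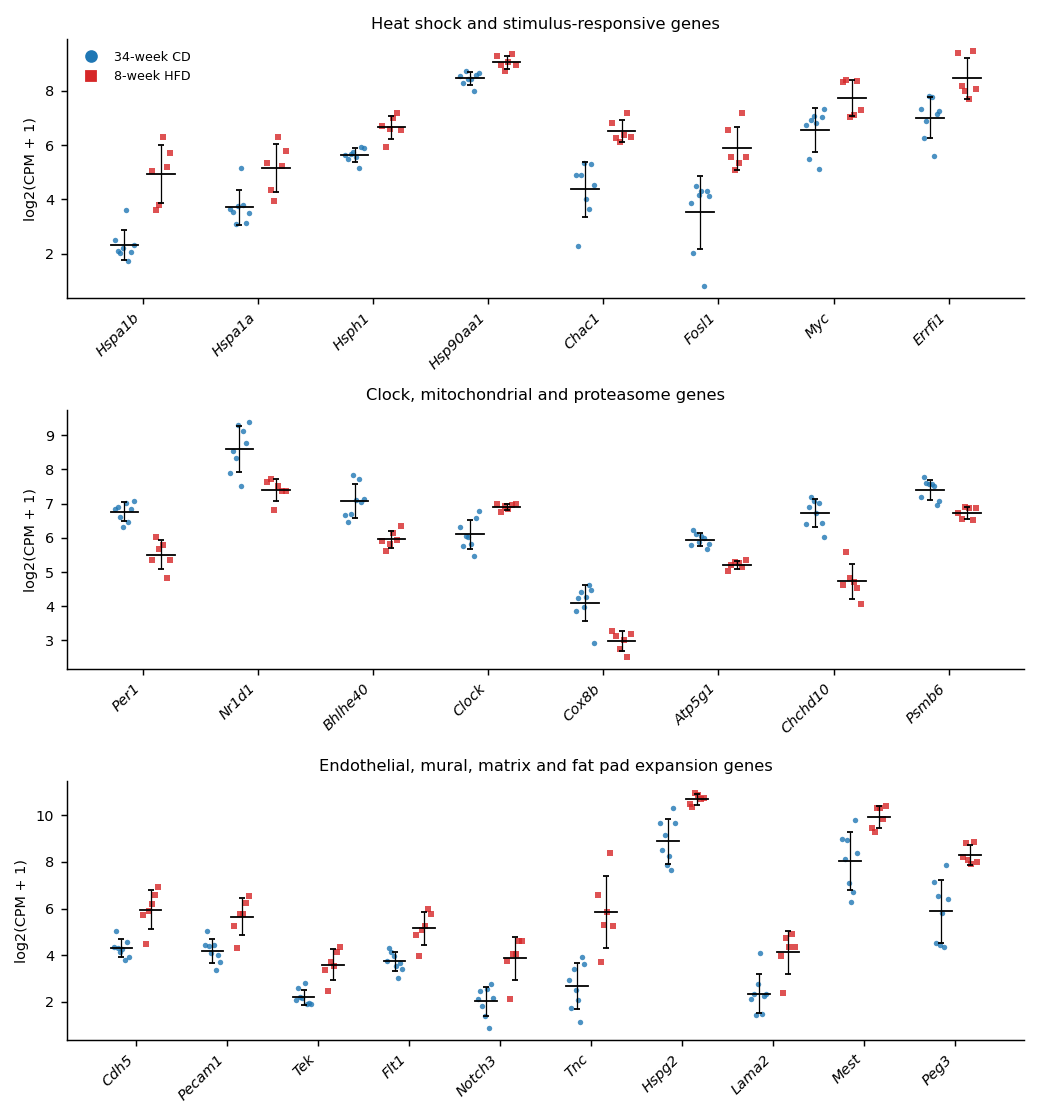
log2(CPM + 1) of called genes in 3 panels, each point a mouse (circles 34-week CD, squares 8-week HFD) with black bars for mean and SD. Chaperone, vessel, matrix and expansion genes lie higher in the squares, and Per1, Nr1d1, Bhlhe40 and the mitochondrial and proteasome genes higher in the circles; 8-week HFD mouse 2 is the low square in Cdh5, Tek, Notch3 and Lama2.

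On the 34-week CD side the largest lists were mitochondrial, ribosomal and proteasomal, with median exon lengths under that of all tested genes. Complex I of the respiratory chain had 12 of 37 members higher in 34-week CD, complexes III to V 18 of 39, the mitochondrial ribosome 32 of 75, the cytosolic ribosome 34 of 79 and the proteasome 20 of 37. These were 32.4%, 46.2%, 42.7%, 43% and 54.1% of the lists, against 9.06% of all tested genes. None of their members was higher in 8-week HFD. Their median log2 differences were 0.42, 0.47, 0.36, 0.43 and 0.41, against 0.01 for all genes. Median exon lengths in these lists were 1569, 1675, 2255, 1781 and 2808 bases. With the length trend removed the counts higher in 34-week CD were 1, 4, 13, 2 and 9, with medians of 0.21, 0.21, 0.23, 0.23 and 0.26. Of all tested genes 5.94% were higher in 34-week CD in that setting. Complex I and the cytosolic ribosome lay below this share, and the other lists above it. Without 8-week HFD mouse 5 the counts were 0, 5, 8, 1 and 6, and the same numbers of calls held whichever mouse was left out. Other settings gave higher counts, with 29, 28, 46, 67 and 23 without 34-week CD mouse 7 and 23, 25, 38, 61 and 23 by DESeq2. Without the 2 mice with most macrophage RNA the counts were 8, 9, 17, 8 and 14. The counts thus moved both ways with the setting, and what moves them was not tested.

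Some members of these lists differed with either treatment of length. Atp5g1 (chr11:96072793-96075694), which encodes the membrane ring subunit of ATP synthase, stood at 59.98 CPM (50.4 to 73.4) in the 34-week CD mice and 36.6 CPM (31.8 to 39.6) in the 8-week HFD mice (log2 difference 0.73 ± 0.09, adjusted p = 0.00284), with no overlap and a difference of 0.75 with the trend removed. Mrps18c (0.73) and the catalytic proteasome subunit Psmb6 (0.67) had no overlap and were called both ways. Cox8b, a respiratory chain subunit of brown and muscle type, stood at 18.02 CPM (6.66 to 23.7) in the 34-week CD mice and 7.38 CPM (4.72 to 8.62) in the 8-week HFD mice (log2 difference 1.12 ± 0.23, adjusted p = 0.01), and its adjusted p with the trend removed was 0.0704. The spliceosome list had 12 of 42 members higher in 34-week CD (7 with the trend removed), led by the cold-inducible RNA-binding protein Cirbp (0.97, adjusted p = 0.00654).

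Lists of lipid metabolism differed in their share of calls. Of 22 lipogenic genes 2 were higher in 34-week CD, the fatty acid desaturase Fads1 (0.96, no overlap) and the pentose phosphate enzyme Tkt (1.31), and 1, Fads3 (-0.79), was higher in 8-week HFD. The list's share of calls was 13.6%, against 19.7% of all genes, yet 17 of its 22 members had a difference above 0 (median 0.57), and 4 were called higher in 34-week CD by edgeR and 12 by DESeq2. Triglyceride synthesis had 2 of 19 members higher in 8-week HFD, Lpin3 (-0.86) and Acsl4 (-0.82). This share, 10.5%, was near the 10.6% of all tested genes. Fatty acid uptake and caveolae had 4 of 12 higher in 8-week HFD, among them the VLDL receptor Vldlr (-0.87), Cav2 and the fatty acid transporter Cd36 (-0.50), and the fatty acid carrier Fabp5 (1.09) higher in 34-week CD, a share of 41.7%, of which 2 and 0 held whichever mouse was left out. Apolipoprotein Apoc1 was higher in 34-week CD without overlap (0.87). In glycolysis the pyruvate kinase Pkm (0.85) and Gpi1 (0.52) were higher in 34-week CD without overlap, opposite to Slc2a1. Oxidation of fatty acids gave 1 call of 22, Etfb (0.60), and breakdown of branched-chain amino acids 1 of 24, Oxct1 (-0.47). Of these calls, fewer than all 14 fits without 1 mouse kept Tkt (called in 4 of 14, adjusted p up to 0.0893 without 8-week HFD mouse 5), Fabp5 (called in 12 of 14, adjusted p up to 0.0626 without 8-week HFD mouse 5), Cd36 (called in 7 of 14, adjusted p up to 0.0593 without 8-week HFD mouse 6) and Oxct1 (called in 8 of 14, adjusted p up to 0.0641 without 8-week HFD mouse 6).

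Immune lists ranged from 0 calls to a share above the 19.7% of all tested genes. MHC class II presentation gave 0 of 9 by limma (1 at an unadjusted p under 0.05, 0 by edgeR, 2 by DESeq2) and complement 0 of 16 (2, 1 and 3 in the same order). For their abundant members Cd74 and Cfd, and for the macrophage marker Lyz2, the differences were -0.24, 1.19 and 1.23 (adjusted p = 0.727, 0.125 and 0.0889). Lipid-associated macrophage markers had 3 of 12 higher in 34-week CD, namely Spp1 (2.60), Fabp5 and Cd63 (0.88), a share of 25%. Spp1, or osteopontin, stood at 76.3 CPM (14.6 to 1298) in the 34-week CD mice and 17.7 CPM (5.95 to 35.98) in the 8-week HFD mice, with 34-week CD mouse 5 far above the rest, and 34-week CD mouse 4 lay within the 8-week HFD range. Markers of resident macrophages had 4 calls of 11 (36.4%) and went both ways, with Mgl2 (-1.64), Lyve1 (-1.62) and Retnla higher in 8-week HFD and Gas6 (0.97) in 34-week CD. The lysosome had 6 of 43 and MHC class I presentation 4 of 16 members higher in 34-week CD (14% and 25%), and without 34-week CD mice 2 and 5 these counts were 1 and 1. B cell markers gave 1 call of 3, Ighm (-1.24). The calls that did not hold without every single mouse were Spp1 (called in 8 of 14, adjusted p up to 0.0805 without 8-week HFD mouse 5), Lyve1 (called in 3 of 14, adjusted p up to 0.0862 without 8-week HFD mouse 6) and Ighm (called in 10 of 14, adjusted p up to 0.0562 without 8-week HFD mouse 6).

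**Figure D4:**
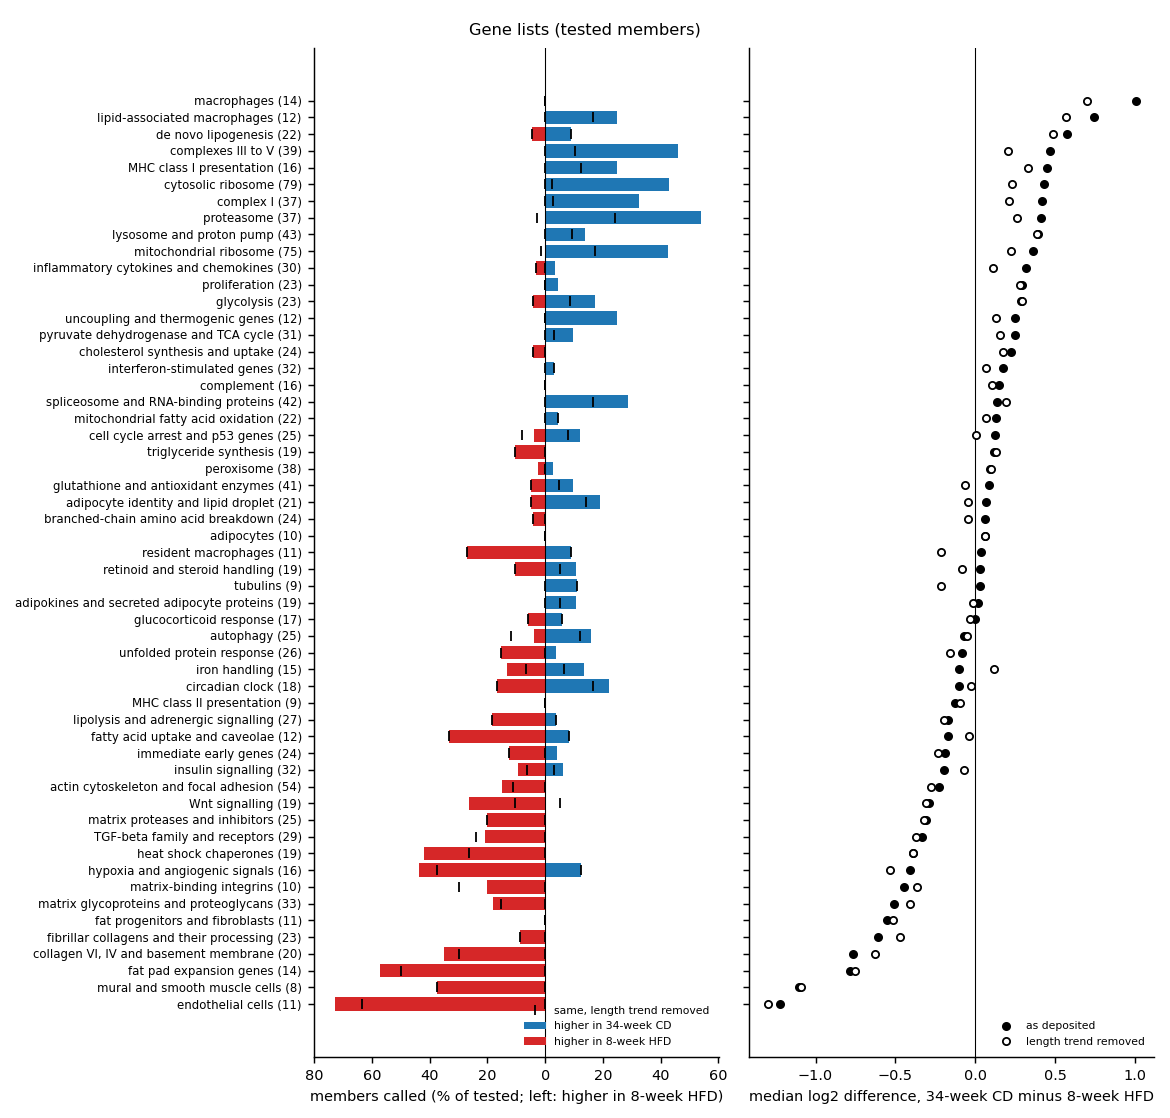
Left, share of tested members called (%) in lists of 8 or more tested genes, to the right for genes higher in 34-week CD and to the left for genes higher in 8-week HFD, with black ticks after removal of the length trend. Right, median log2 difference of each list, filled as deposited and open with the trend removed. Endothelial cells have the lowest median (-1.22) and macrophages the highest (1.01), and for complex I and the cytosolic ribosome the ticks sit at 1 and 2 genes against bars of 12 and 34.

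The same genes were followed in mice outside this comparison, with diet and time in other combinations. In 34-week HFD against 8-week CD, 12 other mice, time on diet points the same way as here and diet the opposite way. In 20-week HFD against 20-week CD, another 12 mice, diet differs and time does not. Age goes with time on diet in every group, and a diet effect that changes with time cannot be told apart from an effect of time. Of the 10334 genes, 42.1% were higher in 34-week HFD and 24.1% in 8-week CD. Of the 936 genes higher in 34-week CD, 620 (66.2%) were higher in 34-week HFD and 37 (3.95%) in 8-week CD. Of the 1096 genes higher in 8-week HFD, 575 (52.5%) were higher in 8-week CD and 118 (10.8%) in 34-week HFD. In both sets the share with the sign of time lay above the background share and the share with the sign of diet below it. In the contrast of diet alone, 42.4% of all genes were higher in 20-week HFD and 22.3% in 20-week CD. The genes higher in 8-week HFD were at 37.5% and 21.5%, near that background, and the genes higher in 34-week CD at 33.5% and 21%.

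Scaling and length moved these shares without turning them. TMM scaling shifted the median of all genes in 34-week HFD against 8-week CD from 0.17 to -0.03, and there 54.9% of the genes higher in 34-week CD were higher in 34-week HFD (background 31.3%) and 64.8% of those higher in 8-week HFD were higher in 8-week CD (background 34.6%). With the length trend removed in every comparison the shares were 56.3% (background 34.4%) and 54.1% (background 31.3%). A length trend was also present in the crossed mice. In 34-week HFD against 8-week CD the shortest bin of genes had a median difference of 0.36 and the longest -0.10. In the contrast of diet alone these medians were 0.09 and 0.15. Diet, time on diet and age all differ between 34-week HFD and 8-week CD, and which of them the trend goes with was not tested.

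**Figure D5:**
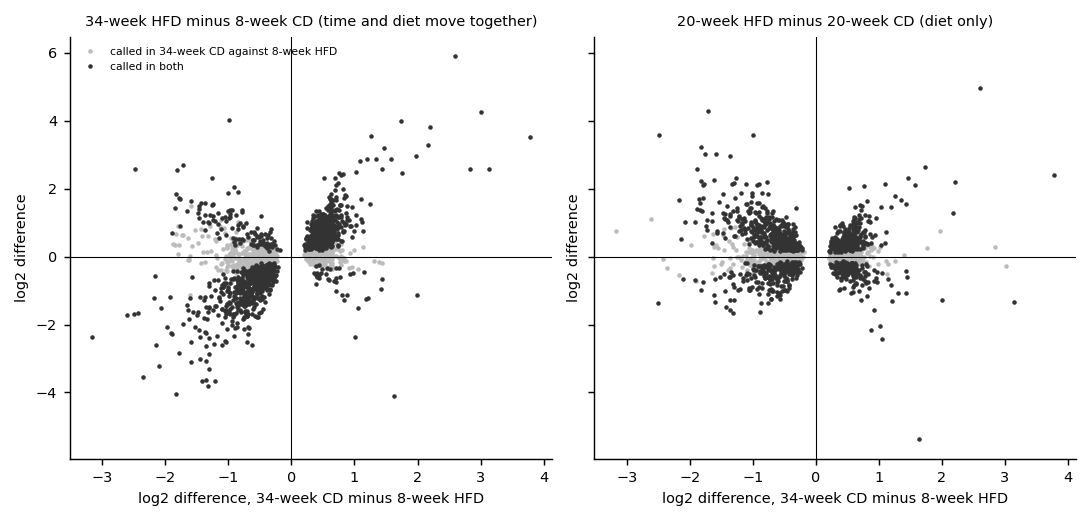
log2 difference between 34-week CD and 8-week HFD (x axis) for the 2032 called genes, against the log2 difference between 34-week HFD and 8-week CD (left) or 20-week HFD and 20-week CD (right); dark points were called in both. On the left the points lie mostly in the lower left and upper right, where 575 and 620 genes were called in both; on the right they lie on both sides of 0.

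Genes called in all 3 comparisons were counted in 4 patterns. In 322 genes (274 under TMM) the longer time was higher at both crossings, and those with the largest differences throughout were Cd5l, Spp1, Syngr1, Fcgr4 and Arhgap19. Cd5l differed by 3.79, 3.51 and 2.41 in 34-week CD minus 8-week HFD, 34-week HFD minus 8-week CD, and 20-week HFD minus 20-week CD. Spp1 differed by 2.60, 5.90 and 4.95 in the same order, and Syngr1, a vesicle membrane protein, by 2.20, 3.83 and 2.20. In 273 genes (405 under TMM) the longer time was lower at both crossings, led by Retnla (-2.50, -1.68 and -1.37), the heme-regulated repressor Bach1 (-1.60, -3.10 and -1.34), the thrombin receptor Thbd (-1.36, -3.62 and -1.29), Fam110c and Dnah3. Chac1 (-2.14, -2.61 and 0.53) belonged to the same pattern. Hspa1b (-2.62, -1.71 and 1.10), Fosl1 (-2.36, -3.55 and -0.33) and, upwards, Per1 (1.25, 1.56 and -0.13) and G0s2 (1.76, 2.45 and 0.26) had the sign of time in the first 2 comparisons, both called, and did not pass the test for diet alone (adjusted p = 0.086, 0.265, 0.638 and 0.425). Hsph1 was called here and for diet alone, at -1.02, -0.31 and 0.53. Without 1 mouse some fits of the first comparison lost Fcgr4 (called in 5 of 14, adjusted p up to 0.096 without 8-week HFD mouse 5), Arhgap19 (called in 8 of 14, adjusted p up to 0.0827 without 8-week HFD mouse 5), Bach1 (called in 12 of 14, adjusted p up to 0.0589 without 8-week HFD mouse 5), Thbd (called in 7 of 14, adjusted p up to 0.0892 without 8-week HFD mouse 5) and Dnah3 (called in 11 of 14, adjusted p up to 0.0683 without 8-week HFD mouse 5).

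Diet held its sign in all 3 comparisons in fewer genes. In 114 genes (65 under TMM) HFD was higher in all 3 comparisons, although the HFD mice were the younger group here, led by the choline transporter Slc5a7, Sez6l (-1.83, 1.84 and 2.23), Lama2 (-1.76, 1.71 and 3.01), the filamin Flnc (-1.79, 1.71 and 2.10) and the microtubule protein Map1a (-1.72, 2.69 and 4.27). In 35 genes (67 under TMM) HFD was lower in all 3, led by Chchd10 (2.00, -1.14 and -1.29), Nr1d1 (1.21, -1.21 and -1.30), the cytochrome P450 Cyp2f2 (1.63, -4.09 and -5.38), the ubiquitin ligase Rnf144b and Sbsn. Cyp2f2 stood at 7.93 CPM (3.21 to 29.2) in the 34-week CD mice and 2.13 CPM (0.388 to 4.55) in the 8-week HFD mice, so few reads carried this difference, and 34-week CD mice 1 and 3 lay within the 8-week HFD range. Calls of the first comparison not held in each fit without 1 mouse were Slc5a7 (called in 4 of 14, adjusted p up to 0.0905 without 8-week HFD mouse 5), Map1a (called in 4 of 14, adjusted p up to 0.0899 without 8-week HFD mouse 5) and Rnf144b (called in 11 of 14, adjusted p up to 0.0604 without 8-week HFD mouse 5).

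The lists took different courses across the 3 comparisons, given here as median log2 differences in the order 34-week CD minus 8-week HFD, 34-week HFD minus 8-week CD, and 20-week HFD minus 20-week CD. Endothelial markers stood at -1.22, 1.34 and 1.10, with 11 of 11 higher in 20-week HFD and 9 higher in 34-week HFD, so HFD was the higher side each time. Basement membrane genes stood at -0.77, 0.51 and 1.28 and fat pad expansion genes at -0.78, 0.55 and 0.53, with their medians on the same sides. Of 14 fat pad expansion genes 7 were higher in 34-week HFD and 5 in 8-week CD, and 7 were higher in 20-week HFD and 3 in 20-week CD. Of 20 basement membrane genes these counts were 10, 4, 13 and 1. Single members differed from their list, as Hspg2 stood at -1.80, 0.06 and 1.73 and Peg3 at -2.43, -1.66 and -0.08. Heat shock chaperones stood at -0.39, -0.31 and 0.23, with 9 of 19 higher in 8-week CD and 8 higher in 20-week HFD. Under TMM the medians of the other 2 comparisons were 1.14 and 0.94 for endothelial markers, 0.29 and 1.12 for basement membrane, 0.34 and 0.36 for fat pad expansion genes, and -0.53 and 0.07 for chaperones.

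Complexes III to V stood at 0.47, 0.18 and -0.32, with 30 of 39 members higher in 20-week CD, and the cytosolic ribosome at 0.43, 0.73 and 0.18, with 77 of 79 higher in 34-week HFD. Under TMM the second median of complexes III to V turned to -0.03. Several lists of immune and dividing cells had larger medians in the other mice than here. Macrophage markers stood at 1.01, 4.27 and 2.33, while resident macrophage markers stood at 0.04, 0.58 and -0.60 and complement genes at 0.15, 0.66 and 0.41. MHC class II genes, which present antigen, stood at -0.13, 3.73 and 2.11, lipid-associated macrophage markers at 0.74, 5.72 and 4.84, and proliferation genes at 0.30, 2.65 and 1.90. Of 23 proliferation genes 22 were higher in 34-week HFD, 21 in 20-week HFD, and 1 in 34-week CD against 8-week HFD.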

How the data were processed

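Messenger RNA of perigonadal adipocytes was measured in 38 mice, of which the 14 of 2 groups were compared. The authors aligned reads to mm10 with STAR 2.5.2b, counted them per gene with featureCounts of Subread 1.5.1, merged the 3 technical replicates of a mouse, and deposited CPM, reads per gene scaled to the same total in each mouse, with no further factor, although their methods name TMM. The CPM were whole multiples of 1 read for 100% of values within 0.1 read, so reads were recovered for the count tests. Depth was 9275711 to 15480388 reads a mouse, at which 1 read was worth 0.0646 to 0.108 CPM.

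Values were tested as log2(CPM + 1), with a pseudocount of 1 CPM and a mean above 2 over the 14 mice, by limma 3.58.1 with a mean-variance trend in R 4.3.3, two-sided, with Benjamini-Hochberg adjustment. Fold changes are on that scale, which understates changes of low genes. The mice were separate animals. Alternatives included TMM, edgeR 4.0.16 and DESeq2 1.42.0 on recovered reads, each mouse left out, and a loess trend (span 0.5) on exon length removed per mouse. Named genes were the 10 largest called differences without overlap each way, up to 4 called members a list, genes of the study's text and 5 genes a pattern across comparisons. The members and lists were chosen with earlier results of these data known. Scripts were tested on simulated data. Ctgf and Mkl1 were not analysed here.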

Additional observations from a re-analysis of the deposited data

Results flagged for a closer look

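In 23 of 302 groups of values, each a named gene or a marker sum in 1 of the 2 groups, the highest or lowest mouse stood apart from the others by Dixon's 95% limit. Chance gives about 1 in 20 such groups. Values are log2(CPM + 1), with the range of the other mice of the group after each.

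34-week CD mouse 5 stood apart in 10 of them. Egr3 was 3.19 (others 0.75 to 1.84) and Eln was 3.18 (others 1.18 to 2.12). Hspa1a was 5.17 (others 3.10 to 3.79) and Hspa1b was 3.60 (others 1.75 to 2.49). Ighm was 6.82 (others 8.65 to 9.26) and Mgll was 9.70 (others 10.41 to 10.83). Mmp2 was 5.91 (others 1.57 to 3.04) and the sum of markers of B and plasma cells was 7.58 (others 8.70 to 9.46). The sum of markers of fat progenitors and fibroblasts was 11.29 (others 9.28 to 9.88) and the sum of markers of muscle was 4.84 (others 6.01 to 6.72).

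8-week HFD mouse 2 stood apart in 6 of them. Abcc9 was 1.68 (others 3.71 to 4.67) and Adamts5 was 8.06 (others 9.09 to 9.44). Cirbp was 4.92 (others 4.30 to 4.49) and Egr3 was 1.84 (others 2.68 to 3.06). Notch3 was 2.14 (others 3.74 to 4.61) and Tpm4 was 8.29 (others 8.77 to 9.001).

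8-week HFD mouse 5 stood apart in 4 of them. Etfb was 7.59 (others 7.90 to 8.02) and Hbb-bs was 6.35 (others 3.30 to 4.38). The sum of markers of mesothelial cells was 6.38 (others 4.23 to 4.96) and the sum of markers of erythroid cells was 6.93 (others 3.89 to 4.84).

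Single values stood apart in other mice. Cd63 was 8.01 in 8-week HFD mouse 3 (others 7.59 to 7.74). Cox8b was 2.94 in 34-week CD mouse 8 (others 3.87 to 4.63). The sum of markers of dendritic cells was 4.90 in 8-week HFD mouse 6 (others 4.19 to 4.45). The part of any 1 cause in these values was not tested.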

How the results depend on the processing

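The count of 2032 called genes was 3695 when all 6 groups shared 1 estimate of the spread, 225 when a 2-fold difference was also asked for, and 1452 without a filter on low genes. Chosen after seeing the data, it was 1335 without the 2 mice with most macrophage RNA and 1446 with the length trend removed. Leaving out 1 mouse gave 789 to 2776, with 984, 1301, 789 and 1295 without 8-week HFD mice 1, 4, 5 and 6 and 1292 and 1341 without 34-week CD mice 2 and 3. In these fits fewer mice were tested, and the cause beyond that was not tested. Counting tools gave 1200 higher in 34-week CD and 1040 in 8-week HFD by edgeR and 1552 and 1462 by DESeq2, against 936 and 1096. For 34-week HFD against 8-week CD the leave-one-out range was 6479 to 6843, and TMM changed the split from 4355 and 2493 to 3237 and 3572. For 20-week HFD against 20-week CD the range was 6224 to 6930, and TMM changed 4383 and 2309 to 3357 and 3509. With the length trend removed those splits were 3560 and 3237, and 3560 and 3322. Over the named genes and all alternatives, 6506 values kept direction and side of the threshold, 1055 lost the call, 56 gained one and 1 turned. That was Esr1, the estrogen receptor, from -0.62 to 0.027 (adjusted p = 0.937) with the length trend removed and macrophage markers as a covariate.

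Mouse numbers did not pair the mice, since same-numbered mice correlated at -0.517 to -0.0729 in their deviations from the group means, and 0 of 6 correlated best with its own number. A fit with the replicate number as a block on mice 1 to 6 called 2281 genes, and 1167 with the length trend removed as well. The block gave 6595 and 6232 genes in the other comparisons. Reads per mouse limit genes near 1 read, which were not tested.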

Other observations

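Lipolysis and adrenergic signalling held 5 of 27 genes higher in 8-week HFD and 1, G0s2, higher in 34-week CD. Together these calls were 22.2% of the list, near the 19.7% of all tested genes. Whichever mouse was left out, 3 and 1 of them held. Adcy5, an adenylate cyclase that makes cAMP, stood at 244 CPM (152 to 374) in the 34-week CD mice and 413 CPM (329.9 to 608) in the 8-week HFD mice (log2 difference -0.85 ± 0.22, adjusted p = 0.0192). Among genes of adipocyte identity, Cidea, a lipid droplet protein typical of brown fat, stood at 5.46 CPM (2.80 to 8.30) in the 34-week CD mice and 1.87 CPM (1.44 to 4.28) in the 8-week HFD mice (log2 difference 0.88 ± 0.23, adjusted p = 0.0207), higher in 34-week CD. The Cidea call was lost with the length trend removed (0.56, adjusted p = 0.112). Klf15, a regulator of amino acid and fat metabolism, was also higher in 34-week CD (log2 difference 1.14 ± 0.30, adjusted p = 0.0223), and of the fits without 1 mouse fewer than 14 kept Klf15 (called in 12 of 14, adjusted p up to 0.0588 without 8-week HFD mouse 5).

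Of 25 genes of cell cycle arrest and p53, 3 were higher in 34-week CD and 1 in 8-week HFD. This share, 16%, lay below the 19.7% of all tested genes. Gadd45g, induced by stress and growth arrest, stood at 115 CPM (80.4 to 204) in the 34-week CD mice and 39.4 CPM (29.2 to 105) in the 8-week HFD mice (log2 difference 1.40 ± 0.27, adjusted p = 0.00937). Of 15 iron genes 2 were higher in 34-week CD, the iron exporter Slc40a1 (log2 difference 1.34 ± 0.39, adjusted p = 0.0306) and the ferritin chain Ftl1 (0.71), and 2 in 8-week HFD, the ferroxidase Heph (-0.74) and the iron sensor Ireb2 (-0.40). Together they were 26.7% of the iron list, against 19.7% of all tested genes. Macrophages also make Slc40a1, and without the 2 mice with most macrophage RNA its difference was 0.98 (adjusted p = 0.0747). In that list leaving out 1 mouse ended part of the calls of Slc40a1 (called in 10 of 14, adjusted p up to 0.0798 without 8-week HFD mouse 5) and Ftl1 (called in 9 of 14, adjusted p up to 0.0691 without 8-week HFD mouse 1). Antioxidant enzymes went both ways, 4 of 41 higher in 34-week CD and 2, Srxn1 and the glutathione synthesis enzyme Gclc (-0.93), higher in 8-week HFD. Their share of calls, 14.6%, lay below the 19.7% of all tested genes, and 1 call each way held whichever mouse was left out. Leaving out 1 mouse ended part of the calls of Gclc (called in 12 of 14, adjusted p up to 0.0528 without 8-week HFD mouse 5).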
